A study of Mus musculus with 6 samples.

Results

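CD8 T cells of orthotopic mouse pancreatic tumours were selected on their transcripts in single-cell RNA sequencing (scRNA-seq) libraries. A cell was a barcode with at least 500 UMIs (unique molecular identifiers, each standing for 1 captured transcript), more than 200 genes and less than 10% mitochondrial UMIs. A CD8 T cell had at least 2 UMIs of the CD3 chain genes Cd3d, Cd3e and Cd3g, at least 1 UMI of Cd8a or Cd8b1, and no UMI of Cd4 or Foxp3. Cells were left out where the C1q genes reached 0.2% of their UMIs, where S100a8 and S100a9 reached 1%, or where Krt8 and Krt18 together had over 1 UMI. Chosen by these counts were 1686 of 74546 cells, namely 541 of 15382 in OE-Vector 1, 362 of 18467 in OE-MLKL 1, 294 of 23063 in OE-MLKL 2 and 489 of 17634 in OE-MLKL 3.

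The tumours grew for 4 weeks in the pancreas of C57BL/6 J mice of both sexes, aged 6 to 8 weeks when the KPC cells were injected. KPC cells come from pancreatic tumours of engineered mice that carry Pdx1-Cre and mutant Trp53, and the injected cells held a control vector in one group (OE-Vector) and a construct overexpressing MLKL, the effector of necroptosis, in the other (OE-MLKL). The T cells belong to the host and carry neither construct, so the groups differ in the injected cells. Count matrices were used for 1 OE-Vector and 3 OE-MLKL libraries, and the other 2 OE-Vector samples were not analysed here. Every comparison of the groups therefore set 1 library against 3, where an exact permutation test cannot give a p below 0.25 and all replicate spread comes from the OE-MLKL side.

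CD8 T cells recognise peptides on MHC class I through the T cell receptor, with CD8 as co-receptor, and kill by releasing perforin and granzymes. The co-receptor is a pair of Cd8a and Cd8b1 chains on most such cells and a pair of Cd8a chains on some others, among them gamma-delta and other resident T cells of epithelia. In tumours, lasting stimulation is known to leave CD8 T cells with inhibitory receptors such as PD-1, encoded by Pdcd1.

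The 250 bases before the start of 4 granzyme genes are shown first, because the levels of these genes varied from library to library in different ways. The sequences come from RefSeq on GRCm38.p6, all read on the minus strand, at chr13:113100982-113101231 for Gzma, chr14:56262335-56262584 for Gzmb, chr14:56234658-56234907 for Gzmc and chr14:56211408-56211657 for Gzmf. Capitals mark ACCACA or its reverse complement TGTGGT, the core that RUNX factors bind, and the palindrome TGACGTCA, the site of CREB and ATF factors, none of which overlap here.
Gzma: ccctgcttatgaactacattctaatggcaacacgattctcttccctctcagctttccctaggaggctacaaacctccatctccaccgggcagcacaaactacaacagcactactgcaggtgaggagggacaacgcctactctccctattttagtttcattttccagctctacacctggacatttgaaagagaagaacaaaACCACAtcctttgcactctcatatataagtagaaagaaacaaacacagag
Gzmb: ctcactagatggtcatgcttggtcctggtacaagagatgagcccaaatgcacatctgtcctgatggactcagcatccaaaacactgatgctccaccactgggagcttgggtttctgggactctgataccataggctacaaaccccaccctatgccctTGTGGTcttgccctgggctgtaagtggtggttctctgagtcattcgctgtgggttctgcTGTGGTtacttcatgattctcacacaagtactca
Gzmc: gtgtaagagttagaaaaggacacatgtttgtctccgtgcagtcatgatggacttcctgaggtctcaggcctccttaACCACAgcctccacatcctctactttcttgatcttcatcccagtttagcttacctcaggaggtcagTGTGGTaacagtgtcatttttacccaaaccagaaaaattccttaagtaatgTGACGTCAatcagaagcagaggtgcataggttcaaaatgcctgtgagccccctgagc
Gzmf: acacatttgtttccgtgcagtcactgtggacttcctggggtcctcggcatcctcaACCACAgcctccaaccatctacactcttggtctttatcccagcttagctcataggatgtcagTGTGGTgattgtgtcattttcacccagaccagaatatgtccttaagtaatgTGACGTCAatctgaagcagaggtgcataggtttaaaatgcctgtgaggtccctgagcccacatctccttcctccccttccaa

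The RUNX core on either strand stood 1 time before Gzma and 2 times before each of Gzmb, Gzmc and Gzmf, and 14.05% of 32851 mouse promoter windows of this length held it. TGACGTCA stood before Gzmc and Gzmf and not before Gzma or Gzmb, and 1.55% of windows held it. Of the other granzyme windows, those of Gzmd, Gzme and Gzmk lacked it and that of Gzmg held it, and the motif did not follow the levels. Gzmd at 38.3, 128, 50.4 and 0.80 CPM and Gzme at 8.29, 111, 46.9 and 0.80 CPM (OE-Vector 1, then OE-MLKL 1, 2 and 3) were, like Gzmf, highest in OE-MLKL 1 and lowest in OE-MLKL 3, and Gzmg was at 2.09 CPM or less. CPM are counts of a gene scaled to a common total of the summed UMIs. The Gzmc and Gzmf windows shared a run of 24 bases, against 12 for Gzma and Gzmb. Gzmc to Gzmg are close copies in 1 cluster on chromosome 14, so reads may be split among them and their separate levels are uncertain. A matching stretch of letters is a description and shows no binding.

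The members had medians of 3768 to 4436 UMIs and 1636 to 1842 genes per library. Of the genes the rule did not use, Trac had a UMI in 431 of 541, 295 of 362, 212 of 294 and 398 of 489 members in OE-Vector 1 and OE-MLKL 1, 2 and 3. A UMI of Trbc1 or Trbc2 was found in 523, 350, 277 and 467. Gzmb, the given marker outside the rule, had a UMI in 33.4% to 49.3% of members after every cell was thinned to 1000 UMIs, in 1.96% to 11.7% of conventional CD4 T cells, and in 0% to 1.46% of B cells, which should lack it. Of B cells, 31 to 137 per library entered that comparison, and 0 of 31 allows a share of up to 9.68%. By Trac, Trbc1 and Trbc2 the label fits most members, with an exception among those without a Cd8b1 UMI. Gzmb was found in fewer members. After thinning it had a UMI in 71.5%, 35.7%, 41.8% and 53.4% of members without a Cd8b1 UMI. Among those with one the shares were 37.4%, 35.7%, 37.4% and 27.2%. In OE-Vector 1 and OE-MLKL 2 and 3 the members without Cd8b1 thus raised the Gzmb share. At the edge of the rule, 13, 13, 28 and 14 members had just 2 CD3 UMIs, with Gzmb at 387, 421, 946 and 827 CPM. Just outside, 9, 7, 18 and 9 cells had 1 CD3 UMI and met every other condition, with Gzmb at 525, 184, 545 and 227 CPM.

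The barcode of 10, 4, 6 and 7 members was also that of a cell in another library, and 1 barcode was a member in both OE-Vector 1 and OE-MLKL 3. Mlkl in the cancer or epithelial cells was 15.7 CPM in OE-Vector 1 and 8.55, 12.6 and 19.9 CPM in the OE-MLKL libraries, so 2 of the 3 libraries labelled OE-MLKL were below the library labelled OE-Vector and OE-MLKL 3 was above it. Every direction between groups below goes by those labels. Markers of other cells were found in the members as well. Macrophage genes summed to 476 to 1444 CPM with 7 of 7 genes present in every library, neutrophil genes to 371 to 943 CPM with 6 of 6, fibroblast genes to 76.8 to 397 CPM with 5 of 5, and B cell genes to 29.8 to 312 CPM with Ms4a1 at 0. The macrophage genes summed to 7123 to 11415 CPM and the neutrophil genes to 4012 to 9371 CPM in free RNA, sampled from barcodes of 100 UMIs or fewer, above their sums in the members. These sums hold the C1q genes, S100a8 and S100a9, which the rule caps in the members, so the gate had a part in that order. The B cell genes summed to 70.7, 19.4, 14.1 and 84.9 CPM in free RNA, below the members at 154, 29.8, 46.2 and 312 CPM. No doublet caller was run.

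CD8 T cells were 3.52% of cells in OE-Vector 1 (95% exact binomial interval 3.23 to 3.82%, for counting error only) and 1.96%, 1.27% and 2.77% in OE-MLKL 1, 2 and 3. The OE-MLKL mean was 2.00% ± 0.750 (SD, n = 3), a difference of -1.51 percentage points (two-sided exact permutation p = 0.25, the smallest possible). Mixed cells had a UMI of any of 8 genes of other cell types, or over 3 times the median UMIs of their type in that library. With them removed, 309 of 541, 290 of 362, 213 of 294 and 229 of 489 members were left in OE-Vector 1 and OE-MLKL 1, 2 and 3. Over the same total of all cells, the shares were then 2.01% against 1.26% ± 0.325, a difference of -0.745. All 3 OE-MLKL libraries were below the OE-Vector library. Among T cells sorted into CD8, conventional CD4 and regulatory gates, CD8 T cells made up 68.1% in OE-Vector 1 against 73.8% ± 9.14 (SD, n = 3, range 63.9 to 81.9%, exact permutation p = 0.75). With cells thinned to 1000 UMIs before the gate this difference turned, from 5.70 to -5.20 percentage points.

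**Figure D1:**
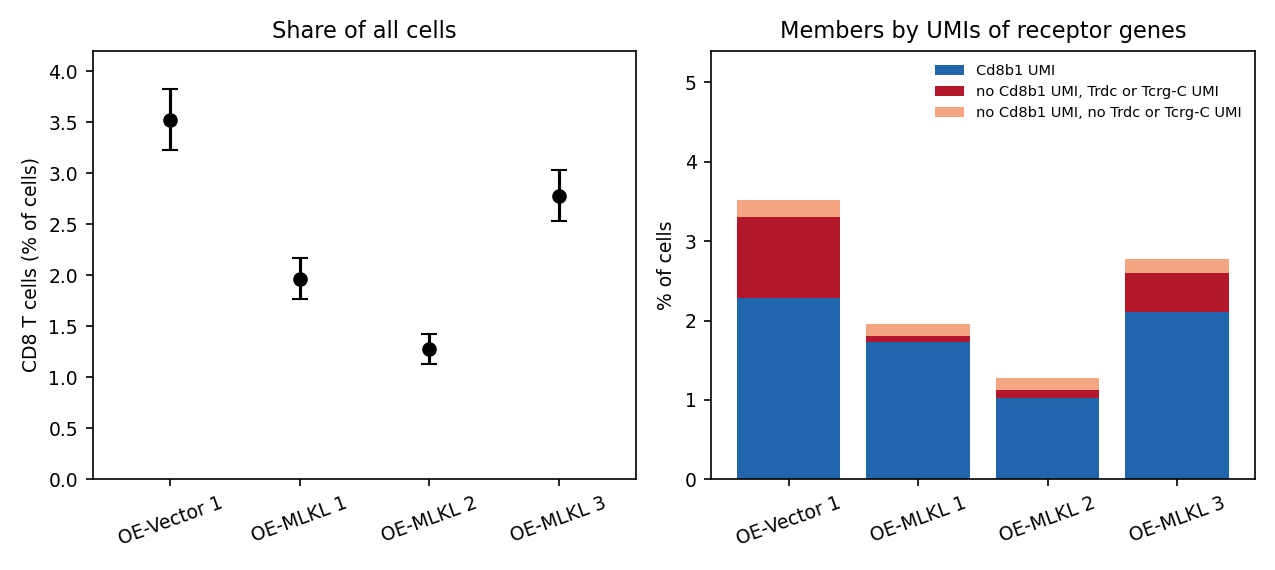
Left, CD8 T cells as a percentage of all cells in each library, with 95% exact binomial intervals. Right, the same percentages as bars split by whether a member had a Cd8b1 UMI and, if not, a UMI of Trdc or a Tcrg-C gene. OE-Vector 1 is highest at 3.52%, and its red layer, members with gamma-delta receptor transcripts and no Cd8b1 UMI, is the widest.

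Members fell apart by the second CD8 chain. In OE-Vector 1, 190 of 541 members (35.1%) had Cd8a but no Cd8b1 UMI, against 43 of 362 (11.9%), 59 of 294 (20.1%) and 117 of 489 (23.9%) in OE-MLKL 1, 2 and 3. As shares of all cells, members with a Cd8b1 UMI were 2.28%, 1.73%, 1.02% and 2.11%, and members without one 1.24%, 0.233%, 0.256% and 0.663%. Of the members without Cd8b1, 157 of 190, 14 of 43, 23 of 59 and 87 of 117 had a UMI of Trdc, Tcrg-C1, Tcrg-C2 or Tcrg-C4, the constant regions of the gamma-delta receptor. So had 74 of 351, 23 of 319, 18 of 235 and 66 of 372 members with a Cd8b1 UMI, so these transcripts were found on both sides of the division, and in OE-MLKL 1 in more members with Cd8b1 than without. Members without Cd8b1 were also shallower, at median UMIs of 2975, 2418, 2352 and 2754 against 4958, 4772, 4485 and 4433, so depth moved with the division and its part in it was not tested. Only 2, 0, 1 and 4 members had Trdc and no UMI of Trac, Trbc1 or Trbc2. Because this division uses the same counts, the levels that follow are a description, with no test.

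Gzma, a granzyme with trypsin-like activity, was at 22851, 3458, 5473 and 11141 CPM in the members without a Cd8b1 UMI and at 1601, 251, 510 and 269 CPM in those with one (OE-Vector 1, then OE-MLKL 1, 2 and 3). Ccl5, a chemokine that draws T cells and monocytes, was at 29207, 6283, 10724 and 16609 CPM without Cd8b1 and at 3089, 1737, 1834 and 2501 CPM with it. Both genes were higher without Cd8b1 in every library.

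Itgae, Cd7 and Fcer1g, singled out after their values were seen, had the same order. Itgae, the CD103 integrin chain that binds E-cadherin, was at 702, 117, 334 and 553 CPM without Cd8b1 and at 42.4, 5.60, 15.8 and 41.7 CPM with it. Cd7 was at 2858, 540, 909 and 2317 CPM against 115, 19.0, 43.4 and 87.8 CPM. Fcer1g, an adaptor that NK and gamma-delta cells use for activating receptors, was at 1726, 258, 662 and 1085 CPM against 262, 30.8, 59.2 and 125 CPM. All 3 genes were higher without Cd8b1 in every library. In free RNA, Fcer1g was at 819, 383, 413 and 755 CPM, above its level in the members with Cd8b1 in every library.

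Gzmf and Pdcd1 ran the other way. Gzmf was at 7.61, 1041, 643 and 0 CPM without Cd8b1 and at 256, 1753, 1041 and 27.8 CPM with it, and Pdcd1 at 18.3, 336, 161 and 60.1 CPM against 260, 404, 270 and 258 CPM. Prf1, which encodes the pore-forming perforin, was at 80.7, 141, 142 and 96.2 CPM without Cd8b1 and 210, 246, 219 and 342 CPM with it. Gzmb had no fixed order, at 2911, 556, 1255 and 1145 CPM without Cd8b1 and 1061, 771, 882 and 422 CPM with it.

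**Figure D2:**
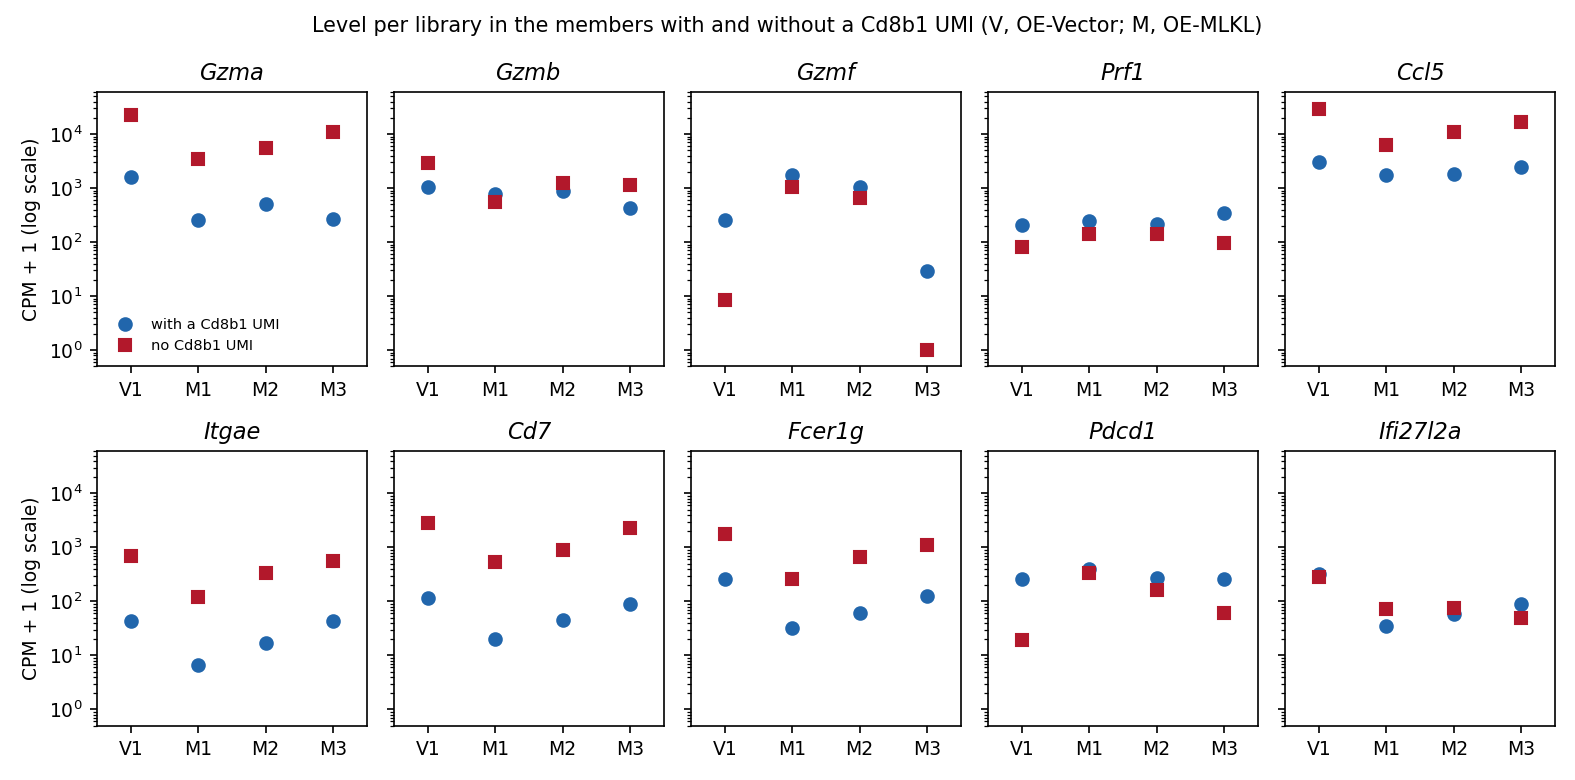
Level of 10 genes per library (V1, OE-Vector 1; M1 to M3, OE-MLKL 1 to 3) as CPM + 1 on a log axis, for members with a Cd8b1 UMI (blue circles) and without one (red squares). Red lies above blue in all 4 libraries for Gzma, Ccl5, Itgae, Cd7 and Fcer1g, and below it for Gzmf, Prf1 and Pdcd1.

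After thinning, Gzma had a UMI in 40.5% of members in OE-Vector 1 and in 11.1%, 24.8% and 19.5% in OE-MLKL 1, 2 and 3, and the group summary was 18.5% ± 6.93 (SD, n = 3, exact permutation p = 0.25). The share in conventional CD4 T cells was 0.980% to 5.85% and in B cells 0% to 3.65%. All OE-MLKL libraries were below OE-Vector 1. Among members with a Cd8b1 UMI the shares were 21.1%, 8.46%, 20.9% and 6.18%, so OE-MLKL 2 then lay close to OE-Vector 1.

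Gzmf had a UMI in 3.54% of thinned members in OE-Vector 1, 31.3% in OE-MLKL 1, 18.3% in OE-MLKL 2 and 1.64% in OE-MLKL 3. OE-MLKL 1 and 2 were high and OE-MLKL 3 was below OE-Vector 1, so the groups overlapped. Both transcripts in 1 cell were found in 0.933%, 1.66%, 4.83% and 0.205% of members, and Gzmf without Gzma in 2.61%, 29.6%, 13.4% and 1.43%. In OE-Vector 1, 10 members held 81.5% of all Gzmf UMIs.

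Gzmb had a UMI in 49.3% of thinned members in OE-Vector 1 and in 35.7%, 38.3% and 33.4% in the OE-MLKL libraries (35.8% ± 2.44, SD, n = 3, exact permutation p = 0.25). Prf1 had one in 10.4% against 19.1%, 17.2% and 15.4% (17.2% ± 1.87, SD, n = 3, exact permutation p = 0.25), with 0.532% to 5.17% in conventional CD4 T cells. Gzmb was thus lower and Prf1 higher in all 3 OE-MLKL libraries. Among members with a Cd8b1 UMI the Gzmb shares were 37.4%, 35.7%, 37.4% and 27.2%, and OE-MLKL 2 was then not below OE-Vector 1.

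Pdcd1 was detected in 13.6% of thinned members in OE-Vector 1 and in 30.5%, 19.0% and 16.8% in the OE-MLKL libraries (22.1% ± 7.35, SD, n = 3, exact permutation p = 0.50). Within the members with a Cd8b1 UMI those shares were 20.6%, 31.3%, 21.7% and 20.4%, and OE-MLKL 3 was then below OE-Vector 1. Itgae was detected in 19.0% against 2.22%, 8.97% and 15.2% (8.78% ± 6.48, SD, n = 3, exact permutation p = 0.50). Tnfrsf9, the costimulatory receptor 4-1BB, was detected in 12.1% against 28.0%, 16.6% and 9.63%, which overlap. Lag3 was detected in 11.4% against 6.96% ± 0.710 and Gzmk in 9.14% against 4.75% ± 1.495 (SD, n = 3, exact permutation p = 0.25 for each). Tox, a factor of exhausted T cells, was detected in 15.3% against 21.8% ± 3.39 (SD, n = 3, exact permutation p = 0.25). Tox overlapped with cells thinned to 500 UMIs (8.87% against 8.16% to 12.7%) and without thinning (39.4% against 39.1% to 59.9%). Lag3 and Gzmk stayed below OE-Vector 1 in every OE-MLKL library in each case, with exact permutation p = 0.50 for Lag3. Ifng, Xcl1 and Ccl5 overlapped, at 10.8% against 10.6% ± 3.93, 13.6% against 12.3% ± 3.92 and 67.2% against 65.7% ± 4.67. In all, 28 such shares were compared in this way, and none can pass 0.05.

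Cells with UMIs of at least 2 of 10 mitotic genes made up 14.2% of thinned members in OE-Vector 1, against 21.1%, 21.4% and 13.7% for OE-MLKL 1, 2 and 3. The groups overlapped in this share.

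**Figure D3:**
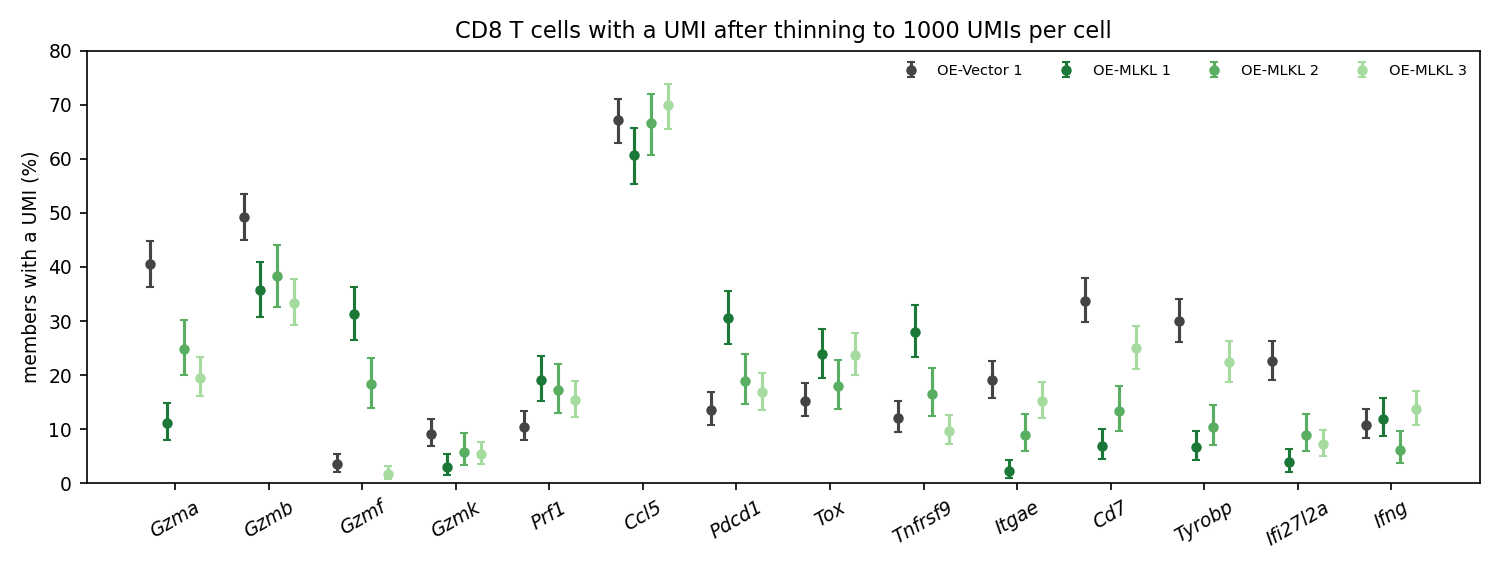
Members with a UMI of each of 14 genes after thinning to 1000 UMIs, in percent, with 95% exact binomial intervals, 1 point per library. Gzma, Gzmb and Ifi27l2a are highest in OE-Vector 1, Gzmf is high in OE-MLKL 1 and 2 alone, and Ccl5 lies between 60.7% and 69.9% in all 4.

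Whether the CD8 T cells of OE-MLKL and OE-Vector tumours differed in expression was asked on the summed counts of each library, with the quasi-likelihood test of edgeR over 10961 genes and p-values adjusted by Benjamini-Hochberg. It called 13 genes, or 0.119% of those tested, 1 higher and 12 lower in OE-MLKL. Of the 12, Clps, Rnase1, Reg2, Pnlip, Ctrl, Sycn, Cpb1, Prss2, Cela1 and Cela3b are made in bulk by the acinar cells of the pancreas. Clps, the lipase cofactor colipase, was at 173, 2.09, 2.101 and 0.80 CPM (log2 difference -6.76 ± 0.456 SE, adjusted p = 0.000126). Just 1 member of OE-Vector 1 held 496 of the 500 Clps UMIs of that library and 3452 of its 3599 UMIs of 12 digestive genes. Without that cell, an alternative chosen after seeing the data, edgeR called 0 of 10943 genes, and Prss2 turned to 2.14 and Cela3b to 0.69 on the log2 scale.

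**Figure D4:**
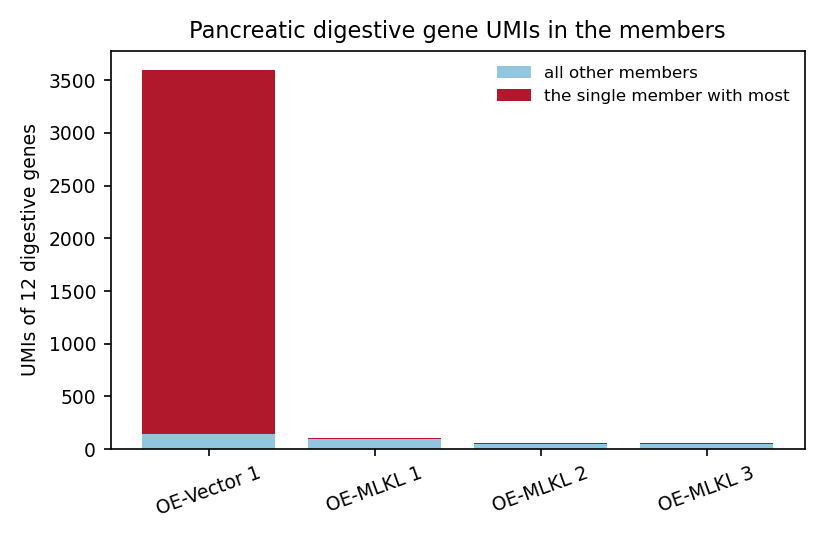
UMIs of 12 pancreatic digestive genes summed over the members of each library, with the share held by the single richest member in red. In OE-Vector 1 that member holds 3452 of 3599 UMIs, while the OE-MLKL libraries hold 106 or fewer in all.

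The other 3 called genes did not come from that cell. Ifi27l2a, an interferon-induced gene at chr12:103442167-103443680 on the minus strand (GRCm38), was at 314 CPM in OE-Vector 1 and at 37.1, 59.5 and 82.8 CPM in OE-MLKL 1, 2 and 3 (log2 difference -2.43 ± 0.367 SE, adjusted p = 0.033). It had UMIs in 235 of 541 members of OE-Vector 1, with at most 38 in 1 cell. All OE-MLKL libraries were lower, with and without a Cd8b1 UMI. In free RNA, Ifi27l2a was at 207 CPM in OE-Vector 1 and at 34.7, 40.7 and 47.7 CPM in the others, the same order as in the members, and its part in the result was not tested.

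Chil3, a secreted lectin of myeloid cells (chr3:106147554-106167564, minus strand), was the 1 gene called higher, at 6.91, 77.8, 144 and 88.8 CPM (log2 difference 3.89 ± 0.587 SE, adjusted p = 0.033). Its level in free RNA was above that in the members in every library, at 116, 644, 821 and 447 CPM. Asb2, a ubiquitin ligase subunit (chr12:103321142-103356001, minus strand), was at 32.1, 1.04, 1.40 and 4.40 CPM (log2 difference -3.73 ± 0.550 SE, adjusted p = 0.033), from 93 UMIs in 51 members of OE-Vector 1. With the digestive-gene cell removed, the adjusted p of Ifi27l2a, Chil3 and Asb2 rose to 0.13 while their differences stayed at -2.43, 3.88 and -3.73.

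Not called, and named as the next by p on the higher side, were Tff1 (5.84, adjusted p = 0.065), Zc3h12c, Hp and Exph5, with log2 differences of 2.67 to 5.84. Isg15, an interferon-induced ubiquitin-like protein singled out after its values were seen, was at 67.0 CPM in OE-Vector 1 and 5.75, 11.9 and 19.6 CPM in the others (log2 difference -2.45 ± 0.423 SE, adjusted p = 0.079), with free RNA at 133, 26.8, 31.4 and 75.8 CPM. Of the interferon-induced list, 1 of 18 tested genes was called, Ifi27l2a, and the median of the list was -0.97 against 0.03 over all genes tested.

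Among the members with a Cd8b1 UMI alone, an alternative added after seeing the data, 21 of 10594 genes were called (0.198%), 2 higher and 19 lower. Ifi27l2a (-2.48, adjusted p = 0.030), Isg15 (-2.57, adjusted p = 0.038), Chil3 (4.09, adjusted p = 0.019) and Tff1 (5.57, adjusted p = 0.038) were among them. So were the same 10 digestive genes, since the cell rich in them has a Cd8b1 UMI and was kept in this set, and 12 of the 13 genes called over all members recurred. This set was not fitted without that cell, so how far these adjusted p-values depend on it was not tested.

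No granzyme passed the test between groups, and the other 14 of the 15 gene lists had 0 called genes. Gzma was at 6422, 465, 1072 and 2076 CPM over all members (log2 difference -2.49 ± 0.588 SE, adjusted p = 0.42), Gzmb at 1481, 756, 925 and 542 CPM (-0.98 ± 0.474 SE, adjusted p = 0.998) and Gzmf at 199, 1705, 996 and 23.2 CPM (2.29 ± 1.52 SE, adjusted p = 0.998). Gzma and Gzmb were lower in every OE-MLKL library and Gzmf overlapped. The chemokine gene Ccl5 was at 9015, 2040, 2841 and 4846 CPM (-1.53 ± 0.521 SE, adjusted p = 0.998), Itgae at 192, 13.1, 51.8 and 127 CPM and Cd7 at 737, 53.8, 142 and 458 CPM, none called. Gzma, Ccl5, Itgae and Cd7 ranked the libraries as the share of members without a Cd8b1 UMI did, highest in OE-Vector 1, then OE-MLKL 3, 2 and 1. Ifi27l2a, Isg15 and Asb2 ranked them in this way too, so the order was not particular to those genes. Gzma, Ccl5, Itgae and Cd7 also kept it within the members without a Cd8b1 UMI, and its cause was not tested. In members with a Cd8b1 UMI, the log2 differences between groups were -2.24 for Gzma (adjusted p = 0.17), -0.66 for Ccl5, -1.08 for Itgae and -1.28 for Cd7, against -2.49, -1.53, -1.67 and -1.87 over all members, with none of the 4 genes called in either fit. Gzmb and Gzmf did not follow this order. The NK and gamma-delta marker sums in the members ran in that order also, at 1203, 173, 315 and 700 CPM for 6 NK genes and at 496, 40.7, 58.1 and 259 CPM for 4 gamma-delta receptor genes, with Ncr1 at 0 in OE-MLKL 1 and 2. Those 6 were Ncr1, Klrb1c, Klre1, Eomes, Fcer1g and Tyrobp. Tyrobp also had a UMI in 15.4% to 22.6% of thinned B cells, so that sum is not particular to NK cells. In free RNA the NK genes summed to 1969, 977, 1133 and 2007 CPM, above the members in every library, and the gamma-delta genes to 21.7, 1.80, 1.80 and 12.1 CPM, below them. With 1 residual degree of freedom, leaving out OE-MLKL 1, 2 or 3 raised the calls to 58, 66 and 613 genes.

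The members were next set against the 470 conventional CD4 T cells of the same libraries (189, 58, 120 and 103), gated as Cd4 without Foxp3 or Cd8, with the library as a block and the genes of the rule left out. Of 8907 genes, 287 were higher in CD8 (3.22%) and 369 lower (4.14%). The cytotoxic list stood out by count, with 11 of 17 tested genes higher and 1 lower, and a median log2 difference of 0.57 against 0.00 over all genes. Calls fell to 348 without OE-MLKL 2 and 241 without OE-MLKL 3, and to 422 without OE-MLKL 1, the library of 58 CD4 cells.

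Gzmb, which cleaves caspases in target cells, was at 181, 24.1, 171 and 56.1 CPM in CD4 against 1481, 756, 925 and 542 CPM in CD8 (log2 difference 3.14 ± 0.202 SE, adjusted p = 4.0e-08). Prf1 was at 4.04, 42.1, 39.5 and 16.8 CPM against 180, 239, 210 and 302 CPM (3.64 ± 0.300 SE, adjusted p = 5.2e-07). In neither gene did any CD4 value reach a CD8 value. Gzma (4.45), Gzmk (3.22), Gzmd (3.51), Gzmf (3.66), Gzme (2.58) and Gzmc (2.45) were also higher, while Srgn, the proteoglycan that packs granules, was lower (-0.70 ± 0.109 SE, adjusted p = 0.000512), at 655 to 1021 CPM against 1169 to 1438 CPM. Gzmf ran against this direction in OE-MLKL 3, at 23.2 CPM in CD8 and 42.05 CPM in CD4. Nkg7 and Fasl were not called, at 0.47 and -0.02.

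Receptors that NK cells also carry were higher in CD8 in 5 of 7 tested genes and lower in 0. Klrk1, which encodes the stress-ligand receptor NKG2D, was at 111, 167, 139 and 132 CPM against 10.1, 30.1, 26.3 and 16.8 CPM (2.95 ± 0.221 SE), and Klrd1, the CD94 chain that pairs with NKG2 receptors, at 640, 623, 384 and 447 CPM against 161, 108, 124 and 67.3 CPM (2.21 ± 0.163 SE). The fifth, Fcer1g, was called over all members (1.12 ± 0.239 SE, adjusted p = 0.007) and not among those with a Cd8b1 UMI (0.04, adjusted p = 0.95), and turned to -0.32 where members with gamma-delta transcripts were removed too. Over its alternatives, the adjusted p of Fcer1g ran from 5.3e-10 to 0.95.

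Several leading genes were less far apart without the members that lacked Cd8b1 or had a gamma-delta transcript. Cd7 was 5.73 higher in CD8 over all members and 2.53 higher in members with a Cd8b1 UMI and no gamma-delta transcript, Gzma 4.45 and 1.60, and Itgae 3.65 and 1.05 (the last not called, adjusted p = 0.15). Prf1 at 3.64 and 3.83, Klrk1 at 2.95 and 3.15 and Eomes, a T-box factor of effector cells, at 5.63 and 5.82 were as large in the second set. Trdc (5.81) led the genes named by size and is the gamma-delta receptor itself. Also among the leading 12 were Gm156, Ly6c2 and Cd244a.

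Icos, a costimulatory receptor, was lower in CD8, at 121, 133, 77.1 and 221 CPM in CD8 and 429, 301, 350 and 662 CPM in CD4 (-1.63 ± 0.150 SE, adjusted p = 1.7e-06), and Cd40lg, the ligand that helps B cells, at 0 to 1.04 CPM against 18.04 to 76.8 CPM. Maf, a factor of helper and regulatory programmes, was at 23.5, 26.1, 30.8 and 54.4 CPM against 378, 337, 477 and 771 CPM (-3.80 ± 0.140 SE, adjusted p = 1.5e-11). Also lower were Lgals7 (-5.16), Tnfsf8 (-3.74), Tnfsf11 (-3.15), Tiam1 (-3.13) and Izumo1r (-3.01), named by size among genes with a mean of at least 50 CPM in CD4. Il21, a cytokine that helps B cells, was at 0 to 2.80 CPM in CD8 against 20.2 to 47.4 CPM. In the activation list 2 of 12 tested genes were higher (Tnfrsf9, Il2rb) and 6 lower, and in the cytokine list 2 of 13 were higher (Ccl5, Xcl1) and 6 lower.

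Naive and memory genes were lower in CD8 in 4 of 16, namely Lef1 (-1.29), Tcf7 (-0.92), Il7r (-1.29) and Slamf6 (-1.43), and higher in 0. Inhibitory receptors split, with Cd160 (1.89) and Cd244a (3.22) higher, Ctla4 (-1.11) and Btla (-1.68) lower and 9 of 13 not called. Pdcd1 was at 205, 399, 258 and 225 CPM in CD8 and at 122, 421, 314 and 314 CPM in CD4 (0.06 ± 0.159 SE, adjusted p = 0.89), and the values overlapped. Immediate early and heat shock genes were lower in 10 of 13, among them Fos (-0.77 ± 0.116 SE), and cell cycle genes higher in 5 of 18, such as Top2a (0.76 ± 0.207 SE, adjusted p = 0.032). The CD4 cells were shallower in the OE-MLKL libraries, at medians of 2190 to 2841 UMIs against 3768 to 4436 in the members.

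The 7 remaining lists were counted in the same way. Transcription factors were higher in 4 and lower in 7 of 16, homing genes in 2 and 3 of 16, interferon-induced genes in 1 and 3 of 16, receptor signalling genes in 1 and 6 of 20, cell death genes in 1 and 1 of 9, MHC class I genes in 0 and 1 of 10 and glycolysis genes in 0 and 0 of 12.

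**Figure D5:**
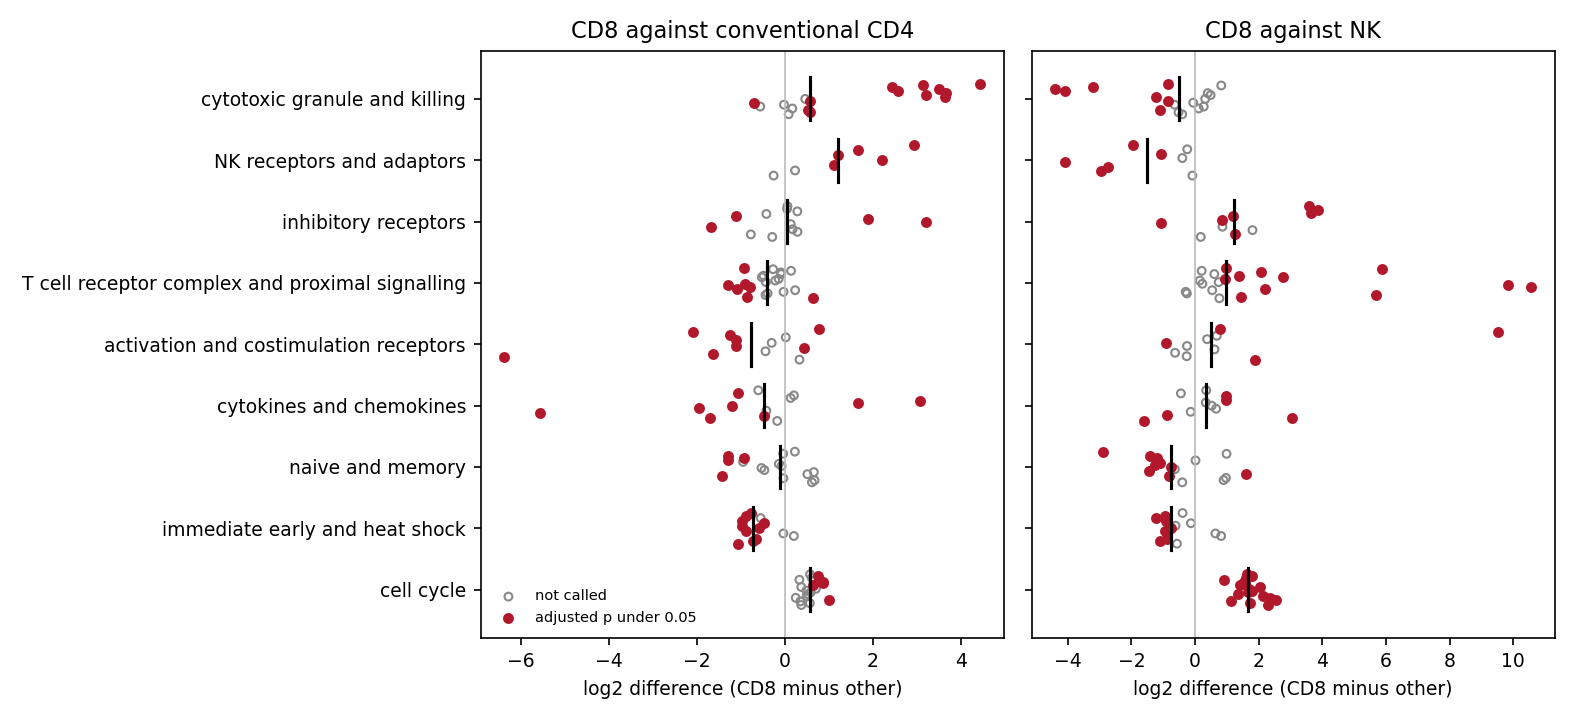
Log2 difference of every tested gene of 9 lists, CD8 minus conventional CD4 (left) and CD8 minus NK (right), with genes of adjusted p under 0.05 filled in red and a black bar at the list median. On the left 11 of 17 cytotoxic genes are red and to the right of 0, and on the right all 18 cell cycle genes are.

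Against the 207 NK cells (56, 2, 32 and 117), gated on NK receptor genes without CD3, 428 of 7878 genes were higher in CD8 (5.43%) and 377 lower (4.79%). OE-MLKL 1 had 2 NK cells, and without it 794 genes were called in place of 805, against 532 without OE-MLKL 2, 211 without OE-MLKL 3 and 414 without OE-Vector 1. Cytotoxic genes were lower in CD8 in 7 of 17 and higher in 0. Prf1 was at 1113, 535, 301 and 575 CPM in NK (log2 difference -1.24 ± 0.292 SE, adjusted p = 0.000612), and Gzmc at 5428, 428, 1966 and 398 CPM against 284, 306, 312 and 13.996 CPM (-3.20 ± 0.339 SE). Gzma was at 5274, 2567, 2399 and 4891 CPM in NK (-0.84 ± 0.285 SE, adjusted p = 0.036) and was above the NK value in the members of OE-Vector 1 alone. Gzmb was not called (0.82, adjusted p = 0.068).

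Inhibitory receptors were higher in CD8 than in NK in 6 of 10 tested genes and lower in 1, Cd244a. Pdcd1 was at 23.4, 0, 28.2 and 14.02 CPM in NK (3.597 ± 0.398 SE, adjusted p = 4.9e-17), Lag3, which binds MHC class II, at 14.03, 0, 0 and 2.81 CPM against 99.8, 81.5, 73.6 and 79.98 CPM (3.86 ± 0.531 SE), and Havcr2, encoding TIM-3, at 14.03, 0, 0 and 8.41 CPM against 86.0, 103, 72.2 and 136 CPM (3.65 ± 0.478 SE). No NK value reached a CD8 value in these 3 genes. The NK values of 0 in OE-MLKL 1 come from 2 cells with 9350 UMIs in all, too few to place Lag3 or Havcr2 below the members there.

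All 18 cell cycle genes tested were higher in CD8 than in NK, with a median of 1.68 against 0.06 over all genes, for example Mki67 at 288, 219, 329 and 404 CPM against 154, 0, 216 and 39.3 CPM (1.63 ± 0.298 SE, adjusted p = 2.8e-06). NK cells were shallower in OE-Vector 1 and OE-MLKL 2 and 3, at medians of 2937, 2822 and 2646 UMIs against 4027, 3768 and 3844 in the members. Members with at least 2 of 10 mitotic genes were deep, at medians of 6336 to 9623 UMIs, and weigh more in the sums. The part of depth was not tested. Receptor signalling genes were higher in 11 of 20, and Cd6, a T cell adhesion receptor, had 1314 UMIs in CD8 and 0 in NK, at least 34.4-fold higher at a floor of 3 counts over the group. Trac was higher by 5.89 ± 0.489 SE. The residency genes Cxcr6 (2.88 ± 0.357 SE) and Itgae (3.07 ± 0.408 SE) were higher too. On the other side were Tyrobp (-2.95 ± 0.306 SE), Eomes (-2.82 ± 0.2499 SE) and Ccr2 (-3.47 ± 0.251 SE). Klra8, an NK receptor, had 1 UMI in all members and was at 104 to 535 CPM in NK. Naive and memory genes were lower in 8 of 15 and NK receptors in 5 of 8. Immediate early genes were lower in 7 of 13, glycolysis genes higher in 4 of 12, homing genes higher in 3 and lower in 5 of 16, and MHC class I genes neither in 10. Transcription factors were higher in 5 and lower in 2 of 15, activation receptors in 3 and 1 of 10, cytokines in 3 and 2 of 11, interferon-induced genes in 1 and 2 of 14 and cell death genes in 1 and 0 of 8.

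Whether the OE-MLKL difference was the same in CD8 as in conventional CD4 T cells was tested as an interaction, which called 165 of 10808 genes more positive in CD8 (1.53%) and 55 more negative (0.509%). Cell cycle genes were more positive in 9 of 18. Top2a was at 371, 323, 439 and 495 CPM in CD8 and at 427, 108, 258 and 219 CPM in CD4 (interaction 1.43 ± 0.241 SE, adjusted p = 3.2e-06), so the CD4 values were lower in OE-MLKL while the CD8 values overlapped. The CD4 cells of OE-Vector 1 were also deeper, at a median of 3924 UMIs against 2190 to 2841. They held the high Col1a2 value described below as well, and the part of either was not tested. Glycolysis genes were more positive in 7 of 12, such as Pgk1 at 368, 343, 401 and 290 CPM in CD8 and 733, 259, 385 and 233 CPM in CD4 (1.38 ± 0.229 SE, adjusted p = 1.9e-06). Pgk1 was called in 17 of 18 alternatives, whereas Eno1 was called in 6, Gapdh in 7, Ldha in 9, Hk2 and Pkm in 11 and Aldoa in 13. Of the cell cycle genes, Top2a was called in 17 of 18 and Cdk1 and Tk1 in 7 and 8 of 17.

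In the cytotoxic list the interaction went both ways, with Gzma and Gzmc more positive in CD8 and Gzmf, Prf1 and Nkg7 more negative. Of 18 alternatives, Nkg7 was called in 17, Gzma in 15, Gzmf in 10, Prf1 in 8 and Gzmc in 7. Gzma in CD4 was at 639, 18.04, 42.2 and 8.41 CPM (2.54 ± 0.287 SE), so it was lower in OE-MLKL in both kinds of T cell. In CD4 it had a UMI in just 1.94% to 8.99% of cells per library without thinning, so those values rest on few cells. Prf1 in CD4 was at 4.04, 42.1, 39.5 and 16.8 CPM (-2.30 ± 0.650 SE, adjusted p = 0.027). Ccl5 was at 166, 361, 1549 and 589 CPM in CD4, all OE-MLKL values above OE-Vector 1, while in CD8 all were below it. The other lists had 0 to 3 calls in each direction. Every one of these differences rests on the single OE-Vector library, and leaving out OE-MLKL 1 left 37 calls of 220. DESeq2 called 19 genes, with no adjusted p for 6711.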

How the data were processed

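Counts came from 10x Genomics 3' libraries of tumours, deposited by the authors as UMI counts per gene and barcode (32285 genes) in unfiltered matrices. The matrices hold 2295176 to 2991965 barcodes per library. The study's methods name v2 reagents, and the reagent version was not checked here. The submitters' processing notes name Cell Ranger 2.1.1 with mm10 and the file header version 7.1.0, the study's methods give a version that differs from both, and whether intronic reads were counted is not given in the sources used here. Library totals were 150591289 to 169978362 UMIs, and members summed to 1427621 to 2894795 UMIs per library. Counts were summed per library and cell type, because the cells of a library share 1 tumour.

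Sums were tested with edgeR 4.0.16 (quasi-likelihood, TMM, expression filter, Benjamini-Hochberg, threshold 0.05), in R 4.3.3. OE-MLKL was tested against OE-Vector with 2 residual degrees of freedom, and CD8 against CD4 or NK with the library as a block. The prior degrees of freedom were 9.11 between groups, 14.1 against CD4, 320 for the interaction and infinite against NK, so the last 2 treat genes of like abundance as sharing 1 spread and their small p-values rest on that. Genes of the rule were left out. On simulated counts the group test recovered 63% of genes changed 4-fold and 97% of those changed 16-fold, with 15 false among 175 calls. Shares of cells with a UMI were taken after thinning each cell to 1000 UMIs (5, 1, 4 and 1 members were shallower), with exact Clopper-Pearson intervals that cover counting error only, and compared by exact permutation. The study gives 3 tumours per group. Between groups, the edgeR p-values rest on the spread among the OE-MLKL libraries. Against CD4 and NK they rest on how the differences within a library vary between libraries. Those of the interaction rest on that variation among the OE-MLKL libraries.

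Genes could be named if they were in the rule or its markers, if they were called or among the 4 most abundant members of 1 of 15 lists, if they were among the 12 called genes per direction (by p between groups, by size against CD4 and NK with a mean of at least 50 CPM in the higher type and the same direction in 4 of 4 libraries, 5 by p for the interaction), or, with fewer than 5 called between groups, among the 5 of smallest p. Gzmf, Itgae, Cd7, Isg15 and Prf1 between groups, and the genes of the Cd8b1 division, were chosen after their values were seen. The members and lists were chosen with earlier results of these data known. Alternatives were DESeq2 1.42.0, limma-voom (limma 3.58.1), other scaling, filters, gates and thinning, and leaving out each library. Subsets by Cd8b1 UMI, gamma-delta transcripts and acinar or collagen UMIs were added after seeing the data. Coordinates follow GRCm38, protein sequences were not used here, and some items are not reported here.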

Additional observations from a re-analysis of the deposited data

Results flagged for a closer look

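The OE-MLKL difference differed between CD8 and conventional CD4 T cells by the interaction test (edgeR, adjusted p) in 10 genes, the 5 of smallest p in each direction. More positive in CD8 were the collagen genes Col1a2 (5.51 on the log2 scale) and Col1a1 (5.38), Saa3 (3.75), Tagln (8.55) and the chemokine gene Ccl1 (2.49). More negative were Ccl5 (-3.56), Ctrb1 (-7.03), Tyrobp (-1.67), Cd27 (-1.87) and Nkg7 (-1.11). Col1a2 was at 57.3, 10.97, 20.3 and 181 CPM in CD8 and at 289, 0, 0 and 25.2 CPM in CD4 (OE-Vector 1, then OE-MLKL 1, 2 and 3), so the high value was in the CD4 cells of OE-Vector 1. Tagln was at 70.8 CPM there and at 0, 0 and 5.61 CPM in the OE-MLKL CD4 cells. Ctrb1 in CD8 was at 483, 23.0, 14.7 and 0 CPM, and 1385 of its 1397 UMIs in OE-Vector 1 were in 1 member. Ccl1 was at 43.2, 272, 334 and 178 CPM in CD8 and at 520, 235, 1175 and 521 CPM in CD4. Cd27, a costimulatory receptor, was at 176, 137, 133 and 165 CPM in CD8 and at 42.5, 126, 137 and 160 CPM in CD4. With mixed cells removed, the interaction was no longer called for Col1a2 (0.16, adjusted p = 0.99), Saa3 (-0.44, adjusted p = 0.94) or Ctrb1 (-0.50, adjusted p = 0.98), and Col1a1 and Tagln had no value in that fit. Without the single cell rich in digestive transcripts, Ctrb1 was at -0.21 (adjusted p = 0.98). No group held 4 or more libraries, so single libraries were not screened for standing apart.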

How the results depend on the processing

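Counts of called genes moved with the processing. Between groups, the 13 genes became 1 with limma-voom, 8 with scaling by library size, 124 with no filter on low counts, 8 with cells thinned to 500 UMIs and 3 with mixed cells removed. In alternatives added after seeing the data, they became 21 in members with a Cd8b1 UMI, 21 where gamma-delta transcripts were absent as well, 4 without cells holding acinar or collagen UMIs and 0 without the single cell rich in digestive transcripts. Leaving out each OE-MLKL library gave 58 to 613 genes over all members and 27 to 523 in those with a Cd8b1 UMI (51 without OE-MLKL 1). DESeq2 called 13 genes, 8 of them shared.

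Against CD4, the 656 genes became 358 with DESeq2, 1020 with no filter, 120 with thinned cells, 434 with mixed cells removed, 91 with no replicate block and 241 to 848 with a library left out. Against NK, the 805 became 332 with DESeq2, 98 with thinned cells, 321 with mixed cells removed, 471 with no replicate block and 211 to 794 with a library left out. The block is the library, which gave both kinds of cell. For the interaction, the 220 became 19 with DESeq2 (no adjusted p for 6711 genes), 102 at a mean of 20 UMIs, 5 with thinned cells, 97 with mixed cells removed, 136 and 101 in the Cd8b1 subsets, 106 without acinar or collagen UMIs and 37 to 220 with a library left out. The labels pair no OE-MLKL library with an OE-Vector library, so the groups were compared unpaired.

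The difference in CD8 share of cells became -0.745 percentage points with mixed cells removed (leave-one-out -1.90 to -1.15), and that in the share of T cells turned to -5.20 when cells were thinned before the gate (leave-one-out 1.67 to 10.7). Signs turned for Prss2 (2.14) and Cela3b (0.69) without the single cell, Pdcd1 between groups (-0.057, Cd8b1 members without OE-MLKL 1), Fcer1g against CD4 (-0.32), Ccl4 (-0.12, thinned) and Isg15 (0.22, mixed cells removed, and 0.025 without OE-MLKL 3, with a range of -1.77 to 0.025 over libraries left out) against NK, and in the interaction Saa3 (-0.44, mixed cells removed), Ccl3 (-0.18, thinned, and -1.06, mixed cells removed), Ube2c (-0.040, thinned) and Xcl1 (0.21, thinned). The cause was not tested, except that thinning leaves fewer genes to test. With 1 OE-Vector library, tumour and group cannot be told apart.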
